A study of Mus musculus with 5 samples.

Results

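The 6 genes described here encode the intracellular peptidoglycan sensors NOD1 and NOD2, their kinase RIPK2, the endolysosomal transporters SLC15A3 and SLC15A4, and the adaptor CARD9. They were chosen by gene symbol in a count table of 18051 genes from dendritic cells of the mouse thymus, all 6 were found, and all 6 passed the filter on low counts that left 12046 genes for testing. Irradiated mice gave 3 libraries, taken 4 days after total body irradiation (TBI), and untreated mice gave 2 libraries. All were C57BL/6J mice aged 6 to 8 weeks, thymi were pooled before digestion, and the sort kept CD45+ cells that also bore CD11c and MHC class II. The titles and tags give day 4, although a treatment note names another day, and the radiation dose is not given in the sources used here. Nothing in the labels says that replicates came from separate pools, so the p-values reflect only how far these samples scatter, which may be technical.

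Fragments of bacterial cell wall, the muropeptides, reach the cytosol of phagocytes partly through proton-coupled transporters of the endolysosomal membrane. There NOD1 detects peptides that carry diaminopimelic acid and NOD2 detects muramyl dipeptide, and both recruit RIPK2 through caspase recruitment domains. RIPK2 is then ubiquitinated and activates the kinases upstream of NF-kB and the MAP kinases. CARD9 joins BCL10 and MALT1 downstream of C-type lectin receptors and also takes part in signalling from NOD2. In the thymus, NOD2 of dendritic cells has been linked to the restraint of regeneration after damage, and the study asked how these cells differ after irradiation.

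The libraries held 7549053, 8428589 and 7940442 counts in the TBI group and 7346330 and 7227000 counts in the untreated group, so that 1 count equalled 0.123 to 0.145 CPM (counts scaled to library size, on library sizes scaled by TMM). On the second principal component of all tested genes TBI replicate 1 lay far from its group, with a score of 48.8 against -34.5 and -21.6. Among the TBI libraries it held the lowest CPM of 5 of the 6 genes and the highest of Card9. Of the 8 genes that mark the sort gate and dendritic cells, 5 were lower after TBI. The class II chains H2-Aa (-0.47 ± 0.12, log2 fold change ± SE) and H2-Ab1 (-0.60 ± 0.16) fell, and H2-Eb1 was not called but lay lower in every TBI library. The haematopoietic gene Ptprc and the invariant chain Cd74 were not called, whereas Itgax, which encodes CD11c (-0.62 ± 0.18), and Flt3, the receptor for a dendritic cell growth factor (-3.15 ± 0.15), fell.

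Nod1 and Slc15a3 rose by an estimated 1.77-fold and 1.62-fold (95% intervals 1.18 to 2.64 and 1.16 to 2.28) and passed the test narrowly. Nod2 was not distinguishable between the groups, and Ripk2, Slc15a4 and Card9 did not pass. With edgeR's quasi-likelihood test and Benjamini-Hochberg adjustment at 0.05, 2 of the 6 genes were called, both higher (33.3%), where 23.1% of all tested genes were called in either direction, 13.3% higher and 9.79% lower. The CPM ranges of the groups did not overlap for 5 of the 6 genes (83.3%), 4 of them higher and 1 lower after TBI; among all tested genes 27.8% were higher and 28.3% lower without overlap, 56.1% in all. At an unadjusted p under 0.05 edgeR gave 3 of the 6 higher and 0 lower, where 4300 of the 12046 tested genes fell under it in either direction. Across the tested genes the median difference was -0.0054 (log2).

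**Figure D1:**
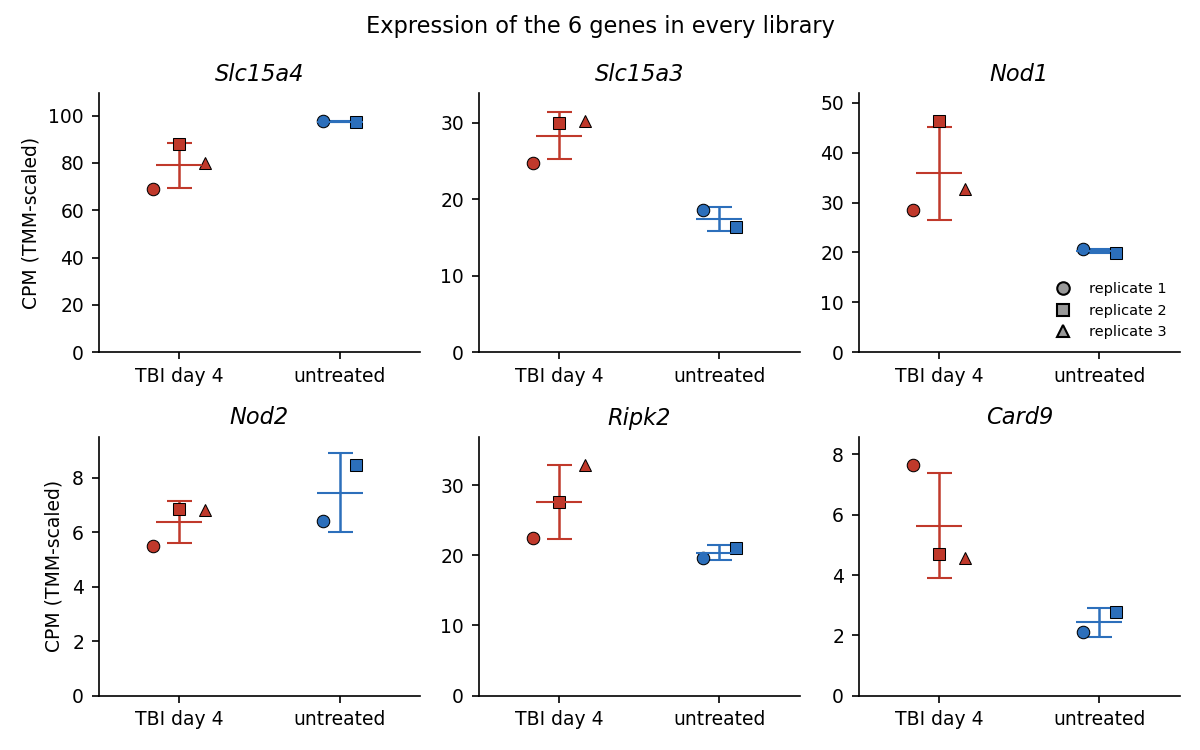
CPM on TMM-scaled library sizes (vertical axis, from 0) in each of the 3 TBI and 2 untreated libraries for the 6 genes. Symbols mark the replicate, horizontal bars the group mean and whiskers the SD; Slc15a3 and Nod1 lie higher in all 3 TBI libraries, and the groups overlap for Nod2.

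The promoters of the sensor pair are shown because both genes code for sensors that feed the same kinase and 1 of the pair passed the test and the other did not. That split is not itself a test of a difference between the pair, which is given below as a ratio. A part of the promoters in the values was not tested. Sequences are from the RefSeq promoter table for GRCm38.p6, which matched 4 of the 6 genes (Nod1, Nod2, Slc15a4 and Card9). Each run covers bases 250 to 33 before the RefSeq start, 218 bases, 5′ to 3′ on the strand of the gene, and stops at the first exon that GENCODE gives for Nod2. Capitals mark GC boxes (GGGCGG) and CCAAT boxes (CCAAT) on either strand. The Nod1 run lies at chr6:54972645-54972862 on the minus strand and the Nod2 run at chr8:88647097-88647314 on the plus strand.
Nod1: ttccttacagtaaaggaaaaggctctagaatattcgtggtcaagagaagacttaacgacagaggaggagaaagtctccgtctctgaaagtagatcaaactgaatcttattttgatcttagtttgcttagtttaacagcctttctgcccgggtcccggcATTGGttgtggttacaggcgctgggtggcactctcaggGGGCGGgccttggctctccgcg
Nod2: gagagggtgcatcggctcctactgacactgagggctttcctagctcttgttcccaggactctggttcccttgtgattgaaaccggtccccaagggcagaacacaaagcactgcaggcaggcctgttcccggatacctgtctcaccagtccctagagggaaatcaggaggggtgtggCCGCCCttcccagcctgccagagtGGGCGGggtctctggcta

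The table lists a second Nod1 start, whose window at chr6:54971694-54971911 (48.6% G and C) held 0 matches to any of the letters searched and is not printed. The Nod1 window shown held 1 GC box, 54 to 49 bases before the start, and 1 CCAAT box on the opposite strand, 92 to 88 bases before it. The Nod2 window held 2 GC boxes, 74 to 69 and 50 to 45 bases before the start. Over 32851 promoter windows of the same length, 28.2% held a GC box and 30.8% a CCAAT box. G and C made up 49.1% of the Nod1 window shown and 60.1% of the Nod2 window, where the median window had 51.8%. None of these windows held the kB-like letters GGGANNNNCC (in 15.3% of windows), the interferon response letters GAAANNGAAA (2.61%), the E-box CACGTG (4.95%), the AP-1 letters TGANTCA (6.05%) or the PU.1-type letters GAGGAA (20.2%), on either strand. These are matches of letters in a short window and not measured binding.

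Of the transporters, Slc15a3 rose and Slc15a4 did not pass, with lower values in all 3 TBI libraries. Slc15a3 (ENSMUSG00000024737.2) encodes a histidine and oligopeptide transporter of endolysosomes that carries muramyl dipeptide, and lies on the plus strand of chromosome 19, 10839727 to 10859362 in GRCm38. It had 171, 236 and 231 counts in the TBI libraries, against 150 and 129 counts in the untreated libraries. On the CPM scale these were 24.7, 29.9 and 30.2 in TBI and 18.5 and 16.3 in untreated libraries. Every TBI library lay above both untreated libraries, and within each group the libraries stayed within 1.22-fold and 1.14-fold of each other. Slc15a3 averaged 28.3 ± 3.07 CPM after TBI and 17.4 ± 1.56 CPM in untreated cells (SD, n = 3 and n = 2), a 1.62-fold difference with a log2 fold change of 0.70 ± 0.21 (SE; 95% interval 0.21 to 1.19; edgeR adjusted p = 0.0469).

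The Slc15a3 call was close to the threshold. Over 14 alternative settings its log2 fold change stayed between 0.47 and 0.79 and it passed in 6, with adjusted p from 0.0110 to 0.367. The call was lost without TBI replicate 2, without TBI replicate 3 and without either untreated library. Its exons share 1541 bases, 28.1% of their length, with Tmem132a on the opposite strand, a gene for a membrane protein. The kit does not mark strand, so reads in that stretch cannot be told apart. Tmem132a itself had 23, 35 and 58 counts in TBI libraries and 45 and 56 in untreated libraries, with overlapping groups and a log2 fold change of -0.30 ± 0.44 (edgeR adjusted p = 0.666).

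Slc15a4 (ENSMUSG00000029416.17) encodes the related endolysosomal transporter that moves NOD ligands and also scaffolds signalling from endosomal Toll-like receptors to IRF5. It lies on the minus strand of chromosome 5, 127595664 to 127632897. Counts were 478, 695 and 612 in TBI libraries, against 791 and 770 in untreated libraries. The corresponding CPM values were 69.1, 88.0 and 79.9 after TBI and 97.6 and 97.3 in untreated cells. All 3 TBI libraries lay below both untreated libraries, which had a CV of 0.193%, while the TBI libraries had a CV of 12%. The log2 fold change was -0.30 ± 0.15 with a 95% interval of -0.66 to 0.052 (edgeR adjusted p = 0.202), so the data allow a fold between 0.634 and 1.04.

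For Slc15a4 the choice of scaling decided the call. With library size alone, which moves the median of all genes to -0.23, its log2 fold change was -0.53 and it passed (adjusted p = 0.0408). In the other 13 of 14 settings it did not, and its log2 fold change lay below 0 in each. Exons of the predicted gene Gm43474, on the opposite strand, cover 8.04% of Slc15a4 exons.

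Within a library, the ratio of Slc15a3 to Slc15a4 does not depend on how libraries are scaled. Per kilobase of exon the ratio was 0.346, 0.328 and 0.365 in the TBI libraries, against 0.183 and 0.162 in the untreated libraries. The groups were separate, and the mean ratio was 2.01-fold higher after TBI (log2 difference 1.01). In the exact two-sided permutation test this gave p = 0.2, the smallest that 3 against 2 libraries allow in 10 arrangements. A ratio shows unequal change of the pair and not which of them moved.

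**Figure D2:**
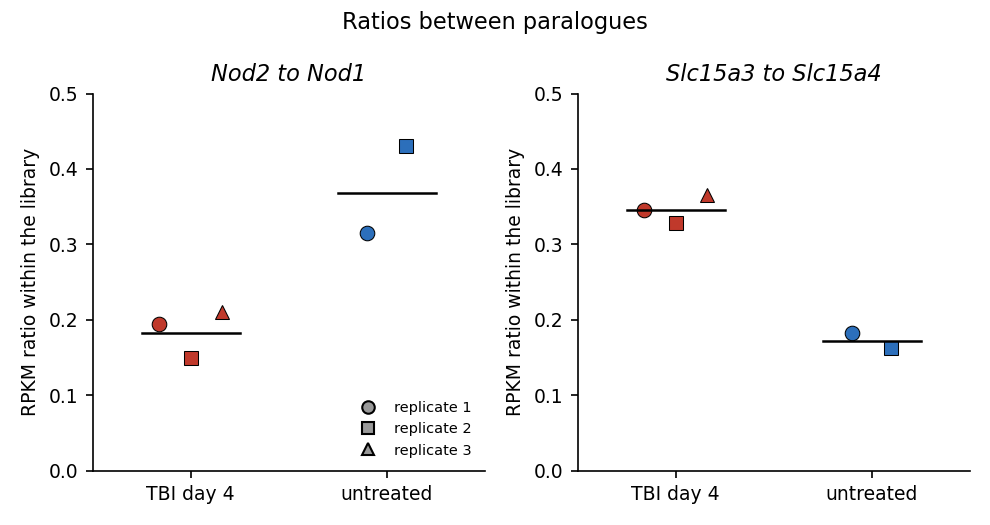
Ratio of RPKM values within each library (vertical axis, from 0) for Nod2 to Nod1 and Slc15a3 to Slc15a4, TBI left and untreated right. Symbols mark replicates and black lines the geometric mean; the groups do not overlap in either panel, with the TBI ratios lower for Nod2 to Nod1 and higher for Slc15a3 to Slc15a4.

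Of the sensors, Nod1 rose and Nod2 did not pass the test. Nod1 (ENSMUSG00000038058.14), the sensor of diaminopimelic acid peptides, lies on the minus strand of chromosome 6, 54923949 to 54972612. It had 197, 366 and 251 counts in the TBI libraries, against 167 and 158 counts in the untreated libraries. In CPM it measured 28.5, 46.3 and 32.8 after TBI and 20.6 and 19.98 in untreated cells. All TBI libraries lay above the untreated ones, but TBI replicate 2 was well above the others. Its 366 counts carry an exact 95% Poisson interval of 329.5 to 405.5, which does not reach the interval of either other TBI library (170.4 to 226.5 and 220.9 to 284 counts). Relative to library size, too, the TBI libraries differed by more than counting error, with a CV of 25.99% against 2.21% in the untreated group.

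Nod1 averaged 35.9 ± 9.32 CPM after TBI and 20.3 ± 0.448 CPM in untreated cells (SD, n = 3 and n = 2). The 1.77-fold difference, a log2 fold change of 0.82 ± 0.25 (95% interval 0.24 to 1.40), had an edgeR adjusted p = 0.0481. By p-value Nod1 ranked 2751 and Slc15a3 ranked 2728 among the 2778 called genes. Nod1 passed in 4 of 14 alternative settings, with log2 fold changes of 0.59 to 0.96 and adjusted p from 0.0082 to 0.273. Leaving out TBI replicate 2 gave 0.59 and ended the call, and the call was also lost without TBI replicate 3 and without either untreated library.

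Nod2 (ENSMUSG00000055994.15), the sensor of muramyl dipeptide, lies on the plus strand of chromosome 8, 88647315 to 88688474. It was counted 38, 54 and 52 times in the TBI libraries, against 52 and 67 times in the untreated libraries. These counts correspond to 5.49, 6.84 and 6.79 CPM after TBI and 6.42 and 8.47 CPM in untreated cells. The groups overlapped: untreated replicate 1 lay between TBI replicate 1 and the other TBI libraries. Counting error alone is wide at this depth, with exact 95% Poisson intervals of 26.9 to 52.2 counts in TBI replicate 1 and 51.9 to 85.1 in untreated replicate 2.

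The log2 fold change of Nod2 was -0.22 ± 0.33 (edgeR adjusted p = 0.673). Its 95% interval, -0.97 to 0.53, allows a fold from 0.51 to 1.44, so a fall to about that lower bound or a modest rise is not excluded here. Nod2 passed in 0 of 14 alternatives, where its log2 fold change ranged from -0.44 with library size alone to -0.0088 without untreated replicate 2. Scaled by total counts alone, the groups did not overlap, with 5.03, 6.41 and 6.55 CPM after TBI and 7.08 and 9.27 CPM in untreated cells.

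The difference between the sensors was tested as their ratio within a library. The ratio of Nod2 to Nod1 per kilobase of exon was 0.195, 0.149 and 0.21 in TBI libraries, against 0.315 and 0.43 in untreated libraries. Every TBI ratio lay below every untreated ratio, and the mean was 0.497 times the untreated one (log2 difference -1.01). The exact two-sided permutation test again gave its smallest possible value, p = 0.2.

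Ripk2 (ENSMUSG00000041135.15), the kinase and scaffold that both sensors recruit, did not pass. The gene lies on the minus strand of chromosome 4, 16122733 to 16163647. Ripk2 had 155, 218 and 252 counts in TBI libraries, against 159 and 167 in untreated libraries. In CPM these were 22.4, 27.6 and 32.9 after TBI and 19.6 and 21.1 in untreated cells. TBI replicate 1 lay just above the untreated libraries and TBI replicate 3 highest. Scaled by total counts alone, TBI replicate 1 (20.5 CPM) lay below both untreated libraries (21.6 and 23.1 CPM). The log2 fold change was 0.44 ± 0.23 with a 95% interval of -0.088 to 0.97 (edgeR adjusted p = 0.211). It passed in 1 of 14 alternatives, without TBI replicate 1, where it was 0.57 (adjusted p = 0.0435).

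Card9 (ENSMUSG00000026928.14), the adaptor of C-type lectin signalling, showed the largest fold of the 6 genes on the fewest counts and did not pass. It lies on the minus strand of chromosome 2, 26352176 to 26360918. There were 53, 37 and 35 counts in the TBI libraries, against 17 and 22 counts in the untreated libraries. On the CPM scale Card9 measured 7.66, 4.68 and 4.57 after TBI and 2.10 and 2.78 in untreated cells. All TBI libraries lay above the untreated ones, and TBI replicate 1, lowest for the other 5 genes, was highest here. Card9 averaged 5.64 ± 1.75 CPM after TBI and 2.44 ± 0.483 CPM in untreated cells (SD, n = 3 and n = 2), a 2.30-fold difference. Its log2 fold change of 1.201 ± 0.47 had a 95% interval of 0.13 to 2.27 before adjustment over all genes (edgeR adjusted p = 0.103). It passed in 0 of 14 alternatives, with adjusted p from 0.0966 to 0.475 and a log2 fold change from 0.92 without TBI replicate 1 to 1.42 without untreated replicate 2. Exons of Gm13562 on the opposite strand cover 3.79% of its exons.

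**Figure D3:**
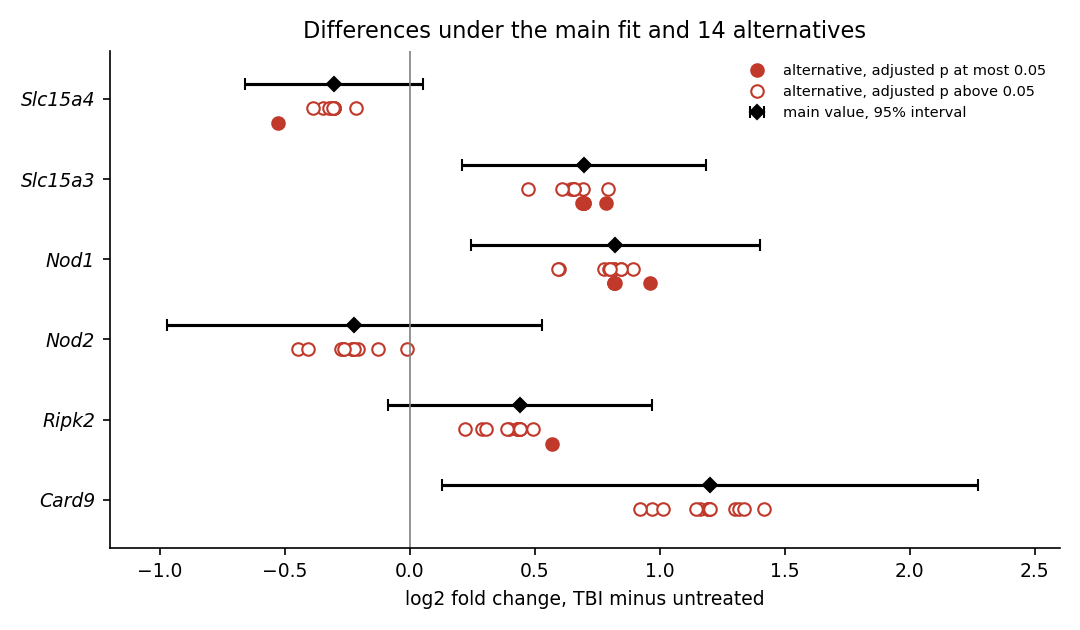
Log2 fold change, TBI minus untreated (horizontal axis), for the 6 genes. Black diamonds with whiskers are the main values with 95% intervals, and circles are 14 alternative settings, filled where the adjusted p was at most 0.05; the sign of each gene holds in all of them, and filled circles appear for Slc15a4, Slc15a3, Nod1 and Ripk2.

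Levels of different genes were compared as CPM per kilobase of exon (RPKM). Slc15a4 had the highest level, 14.9 ± 1.79 RPKM after TBI and 18.3 ± 0.0354 RPKM in untreated cells (SD, n = 3 and n = 2). Ripk2 followed with 9.81 ± 1.87 and 7.23 ± 0.374 RPKM in the same groups. Nod1 had 7.06 ± 1.84 RPKM after TBI and 4.00 ± 0.0882 RPKM in untreated cells. The order below Slc15a4 was not firm after TBI: the Ripk2 libraries (7.96 to 11.7 RPKM) overlapped those of Nod1 (5.61 to 9.12 RPKM).

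Slc15a3 came next, with 5.15 ± 0.559 RPKM after TBI and 3.17 ± 0.284 RPKM in untreated cells. Its level divides by all its exons, including the 28.1% shared with Tmem132a, where reads cannot be told apart. Card9 and Nod2 were the lowest and stood in opposite order in the groups. After TBI Card9 had 2.46 ± 0.764 and Nod2 1.27 ± 0.152 RPKM, and in untreated cells Card9 had 1.06 ± 0.211 and Nod2 1.49 ± 0.29 RPKM. The ranges of Card9 and Nod2 did not overlap in either group, although the untreated gap, between 1.21 and 1.28 RPKM, was smaller than either SD. Among 11617 tested genes with a gene model, Nod2 stood at percentile 20.2 after TBI and 22.4 in untreated cells, Slc15a4 at 71.7 and 77.3, and Card9 at 31.5 and 17.5. With the longest transcript in place of all exons, Slc15a4 had 26.9 RPKM after TBI and 33.2 RPKM in untreated cells, and the order of the 6 genes was the same.

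**Figure D4:**
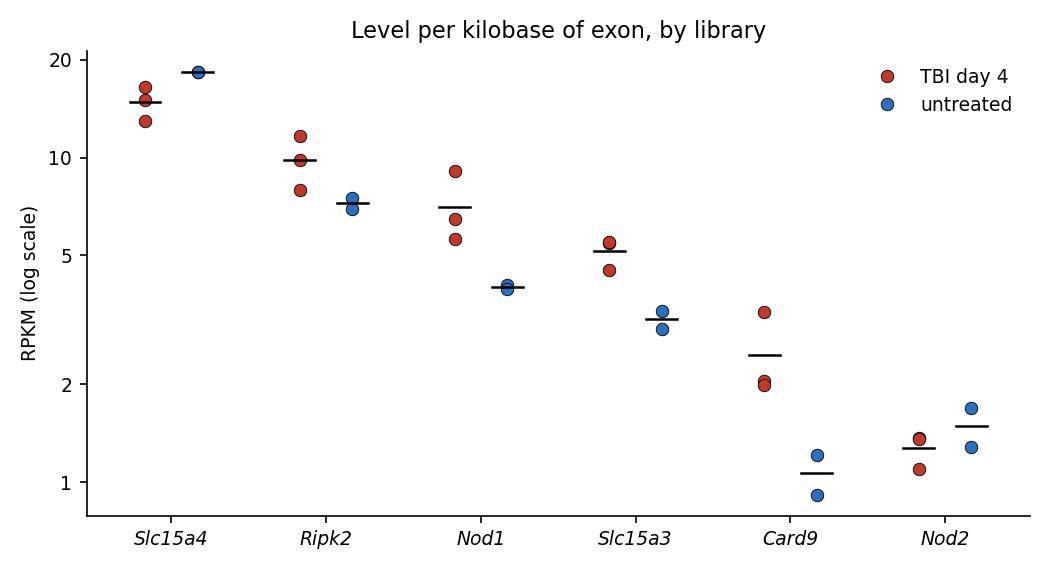
Level per kilobase of exon (RPKM, log axis) of the 6 genes in each TBI (left of each pair) and untreated library. Points are libraries and black lines group means; Slc15a4 is highest in both groups, and Card9 lies above Nod2 after TBI and below it in untreated cells.

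Genes most alike in pattern were taken as the 3 with the smallest Euclidean distance between log2 CPM profiles over the 5 libraries, each centred on the mean of its own 2 group means. For Nod1 these were Cd274 (distance 0.124), which encodes the checkpoint ligand PD-L1, Mettl7a1 (0.199) and the chemokine gene Ccl3 (0.204). Cd274 showed the same high TBI replicate 2, with 92.3, 136.5 and 99.4 CPM after TBI and 65.9 and 59.3 CPM in untreated cells. Nod2 was nearest to Cul9, Rbm18 and Aktip (0.094 to 0.103), and Ripk2 to Nsl1, Entpd1 and Por (0.0821 to 0.104). Slc15a3 was nearest to the calpastatin gene Cast, Tank and Arrb2 (0.0792 to 0.0979). For Slc15a4 the nearest was Psap (0.032), which encodes the lysosomal protein prosaposin, followed by Prr5l and Tmem206. Card9 was nearest to Dleu2, Cd40lg and Cinp (0.136 to 0.182), whose TBI replicate 1 was likewise the highest of the TBI libraries.

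Markers of other cell types moved with the groups. Of 12 macrophage markers 11 were higher, with a summed level of 24330 to 26570 CPM after TBI and 3368 to 3995 CPM in untreated cells, and none was at 0. All 8 plasmacytoid dendritic cell markers were lower (301.6 to 420.7 CPM against 2930 to 2951 CPM), as were 7 of 8 type 1 dendritic cell markers (683 to 822 CPM against 3176 to 3216 CPM). Of 8 natural killer cell markers 7 were higher (935 to 1163 CPM against 87.4 to 89.6 CPM). In bulk samples fewer cells of a type and less RNA per cell cannot be told apart, and the part of these cells in the values of the 6 genes was not tested. Type 2 dendritic cell markers were higher for 4 of 8 and lower for 1 (2927 to 3480 CPM against 1209 to 1349 CPM), and markers of mature CCR7-positive dendritic cells higher for 1 of 8 and lower for 4 (3647 to 4028 CPM against 2536 to 3056 CPM). Cd83, the higher gene, made up most of that last sum, with a mean of 3004 CPM after TBI and 1838 CPM in untreated cells. Itgam was the largest part of the type 2 sum after TBI, with a mean of 1175 CPM, against 136 CPM in untreated cells. The lower type 2 gene was Cd209d (-1.18 ± 0.19), and Irf4, not called, lay lower in every TBI library. For monocytes 3 of 8 were higher and 3 lower (4073 to 6444 CPM against 1948 to 2051 CPM), and for neutrophils 1 of 8 was higher and 1 lower (133.9 to 467 CPM against 35.7 to 371 CPM). Most of the monocyte sum after TBI came from Fn1 and F13a1, with means of 2718 and 1046.5 CPM. B cell markers were higher for 6 of 8 (408 to 541 CPM against 225 to 242 CPM). T cell markers were higher for 1 of 8 and lower for 4 (1322 to 1503 CPM against 1853 to 2075 CPM), and stromal and epithelial markers higher for 2 of 9 and lower for 3 (75.7 to 97.2 CPM against 154.9 to 169.4 CPM). Each first range is the TBI group and each second the untreated group. Mpo and Elane were at 0 counts in every TBI library. In untreated replicates 1 and 2 Mpo had 67 and 872 counts and Elane, which was not tested, had 0 and 216. Pax5 was at 0 counts in both untreated libraries and Pdgfra in all 5.

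Around the 6 genes, 79 pathway genes in 8 lists were counted, of which 76 were in the table and 71 were tested. In all, 19 (26.8%) were higher and 6 (8.45%) lower, where 13.3% of all tested genes were higher and 9.79% lower, and their median log2 fold change was 0.052. With library size alone the split turned, to 14 higher and 16 lower. Without TBI replicate 1 the lower genes numbered 11, and without either untreated library they numbered 4.

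**Figure D5:**
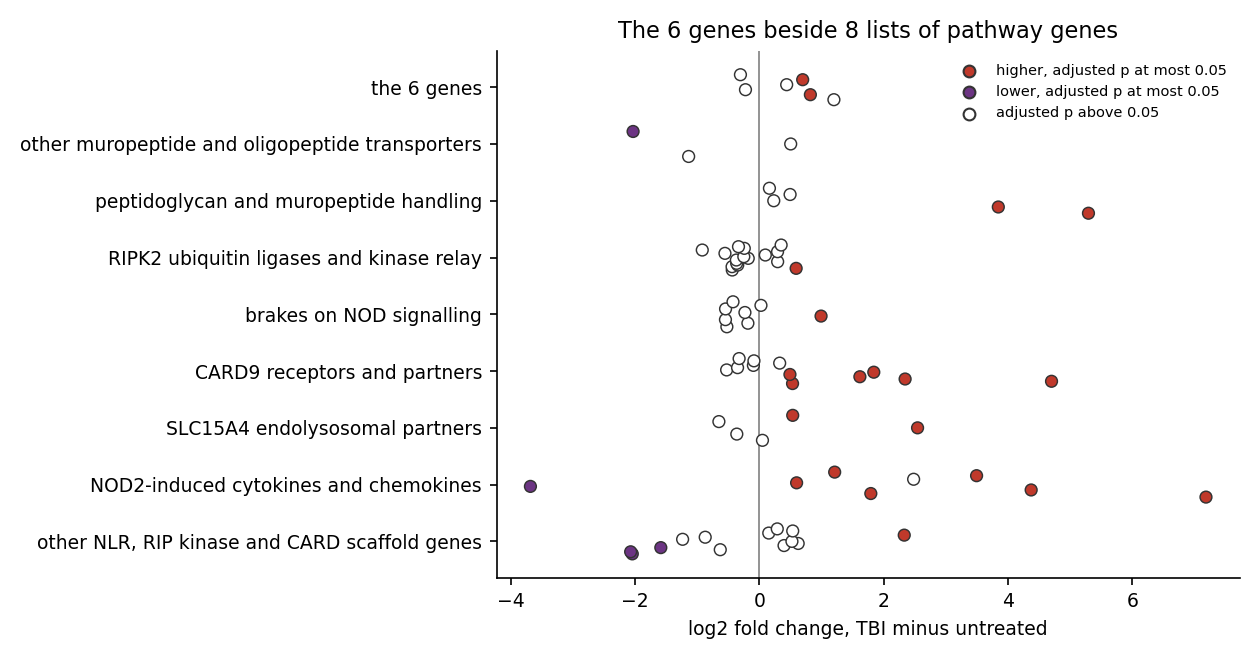
Log2 fold change, TBI minus untreated (horizontal axis), of tested genes in the 8 pathway lists with the 6 genes on top; each point is a gene, filled where the adjusted p was at most 0.05. Ripk4, at 0 counts in every TBI library, is left out; the 6 genes lie between -0.30 and 1.201, while single genes of the cytokine list reach from -3.68 to 7.19.

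Before the sensors, 1 of 3 tested genes for other peptide transporters was called: Slc46a3, a lysosomal carrier of a family tied to muropeptide transport, fell. It had 34.0, 42.5 and 34.9 CPM after TBI and 159.9 and 143.5 CPM in untreated cells, a log2 fold change of -2.03 ± 0.16. Of 5 tested genes for the handling of peptidoglycan, 2 rose, the lysozymes Lyz1 (5.30 ± 0.25) and Lyz2 (3.85 ± 0.18), whose near-identical copies can share reads. The recognition proteins Pglyrp1 and Pglyrp2 and the kinase gene Nagk were not called.

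Downstream of RIPK2, 1 of 16 tested ubiquitin ligase and kinase genes was higher and 0 were lower with edgeR. The higher gene was Birc3, which encodes a ligase of RIPK2 (0.59 ± 0.15; edgeR adjusted p = 0.0219). It was not called with library size alone, without TBI replicate 2 or 3, or without either untreated library. In this list 11 genes lay lower in every TBI library, with log2 fold changes of -0.92 to -0.18 and adjusted p from 0.0650 to 0.369, and in all tested genes 28.3% did so. At an unadjusted p under 0.05, 1 was lower, the kinase gene Chuk, which DESeq2 called, as did edgeR without TBI replicate 1; library size alone called 4 lower. Of 8 brakes on NOD signalling, 1 was higher, the NF-kB inhibitor Nfkbia (0.99 ± 0.13), and 0 were lower with edgeR. Without TBI replicate 1 edgeR called Cyld and Trim27 lower, the 2 genes with an unadjusted p under 0.05; DESeq2 called 1 of them and library size alone called 3.

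Among 12 receptors and partners of CARD9, 6 were higher and 0 lower with edgeR, as with DESeq2; at an unadjusted p under 0.05 edgeR gave 2 lower, Vav1 and Malt1. The lectin receptors Clec4d (4.70 ± 0.37), Clec4e (2.35 ± 0.29), Clec4n (1.62 ± 0.19) and Clec7a (0.49 ± 0.14), the signalling chain Fcer1g (1.84 ± 0.15) and the CARD9 partner Bcl10 (0.54 ± 0.16; edgeR adjusted p = 0.0454) rose. Clec4d had 16 and 11 counts in the untreated libraries. Bcl10 and Clec7a were not called with library size alone, with upper quartile scaling, without TBI replicate 2 or without either untreated library, and Bcl10 also not without the filter on low counts. Malt1, the protease partner of CARD9, was called lower without TBI replicate 1, with upper quartile scaling and, together with Vav1, with library size alone. Of 5 partners of SLC15A4 on endolysosomes, the Toll-like receptor gene Tlr8 (2.55 ± 0.38) and the receptor chaperone Unc93b1 (0.54 ± 0.11) were higher, the second not with library size alone or without either untreated library.

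Of 8 tested cytokine and chemokine genes that NOD2 can induce, 6 were higher: Cxcl1 (7.19 ± 0.48), Cxcl2 (4.37 ± 0.21), Il6 (3.496 ± 0.22), Cxcl10 (1.79 ± 0.17), Tnf (1.21 ± 0.20) and Il1b (0.60 ± 0.16). Tnf was not called without untreated replicate 1, nor Il1b with library size alone, without TBI replicate 2 or without either untreated library. The Cxcl1 value rests on 8 and 5 counts in the untreated libraries (95% interval 6.08 to 8.29). Il12b was lower (-3.68 ± 0.41), or -2.96 without untreated replicate 1. Nos2 was not tested, with 0 counts in every TBI library and 12 and 2 counts in the untreated libraries. Il23a had 20, 50 and 3 counts after TBI and 6 and 3 in untreated cells and was not called (edgeR adjusted p = 0.149), except without TBI replicate 3.

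Of 14 tested NLR, RIP kinase and CARD scaffold genes, 1 was higher, the inflammasome sensor Nlrp3 (2.33 ± 0.27), and 4 were lower. Those lower included Card10 (-2.04 ± 0.55), the class II transactivator Ciita (-1.58 ± 0.18) and Ripk4, a kinase of epithelial cells. Ripk4 was at 0 counts throughout the TBI group, against 20 and 18 counts in untreated libraries; taking 3 counts a library as the floor, it was at least 5.9-fold lower. Without either untreated library Card10 and Ripk4 were not called, Card10 was also not called without TBI replicate 3, and without TBI replicate 1 the higher genes numbered 2, with Ripk1 added.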

How the data were processed

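The submitters' processing notes name STAR 2.5.2a, the build mm10 and Subread featureCounts 1.6.0. The authors deposited a raw count for each gene symbol and library. The annotation, strand setting and treatment of multiply mapped reads are not given in the sources used here. The SMART-Seq kit amplifies by PCR without molecular identifiers, so Poisson intervals and floors cover counting error only.

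The test was that of edgeR 4.0.16 under R 4.3.3: TMM, filterByExpr (minimum count 10, minimum total 15), group as the only term, quasi-likelihood F-test, Benjamini-Hochberg over 12046 genes at 0.05. Fold changes (log2) put TBI over untreated and carry an SE; intervals are 95%. limma 3.58.1 and DESeq2 1.42.0 served as alternatives. Only the function for the edgeR fit was checked on simulated data. Gene models were GENCODE vM21 (GRCm38), matched by symbol; RPKM divides CPM by the union of exons. Figures used matplotlib 3.10.9 in Python 3.11.15.

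The genes and lists were chosen with earlier results of these data known, and the GC and CCAAT boxes after the sequences were seen. Named pathway genes were all those called where 5 or fewer of a list were called in a direction, otherwise the 3 with the smallest p; the further called genes of 2 lists with 6 calls, and the uncalled genes named, were added once their values were known. The log2 CPM profiles used a prior count of 2. Replicate numbers were not treated as pairs. Of the listed genes, Slc15a5, Pglyrp3 and Tasl were not matched in the table. One called gene of the lists is not reported here.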

Additional observations from a re-analysis of the deposited data

How the results depend on the processing

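No sign changed for the 6 genes in 84 alternative values: 64 kept the side of the threshold, 18 lost a call (all of Nod1 or Slc15a3) and 2 gained one (Ripk2 and Slc15a4). Genes called higher numbered 1 of the 6 with DESeq2 size factors and with limma-voom, and 0 without the low-count filter, with upper quartile scaling, with library size alone and with the replicate block. With library size alone 1 of the 6 was called lower. Nod1 had log2 fold changes of 0.82 with DESeq2 size factors (adjusted p = 0.0508), 0.78 with upper quartile scaling, 0.60 with library size alone, 0.82 without the filter and 0.80 with limma-voom (adjusted p = 0.0531). Slc15a3 had 0.65 with upper quartile scaling, 0.47 with library size alone and 0.69 without the filter, and Slc15a4 had -0.53 with library size alone. With the replicate block Nod1 had 0.84 and Slc15a3 0.65 (adjusted p = 0.117). The labels do not say that replicate numbers mark pairs, so the numbers were not taken as pairs. Deviations of same-numbered libraries from their group means had correlations of -0.016 and -0.0099. These cannot decide the question, because the deviations of the 2 untreated libraries mirror each other. Leaving out 1 library at a time gave Nod1 0.59 to 0.96, Slc15a3 0.61 to 0.79, Ripk2 0.30 to 0.57, 0 to 3 of the 6 genes higher, 810 to 2148 genes higher and 423 to 1780 lower over all tested genes, and 4 to 11 pathway genes lower. Where 1 untreated library remained, its spread was taken to equal that of the TBI group. Over all tested genes, library size alone gave 1241 higher and 2129 lower, against 1599 and 1179. Pathway genes called lower numbered 10 with upper quartile scaling and 16 with library size alone, against 6. With the longest transcript as gene length, the levels were 4.70 RPKM for untreated Nod1, 5.80 and 3.58 RPKM for Slc15a3 after TBI and untreated, and 26.9 and 33.2 RPKM for Slc15a4. These levels differ from the main ones only in the length used as divisor. Library size alone differs from the main fit only in leaving out the TMM factors. Those factors were 0.917 to 0.964 in the TBI libraries and 1.094 to 1.103 in the untreated libraries. Why the other values moved was not tested. Both ratios within libraries kept their direction in all alternatives run. Depth limits Nod2 and Card9 most: a library held 17 to 67 counts of either.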
